A study of Mus musculus with 2 samples.

Results

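The enzymes and adaptor proteins that write, copy, read and remove cytosine methylation in DNA were described here through 10 genes, taken as every row of the deposited gene tables whose symbol was Dnmt1, Dnmt3a, Dnmt3b, Uhrf1, Uhrf2, Tet1, Tet2, Tet3, Mbd2 or Tdg. All 10 were found, among 16428 genes with at least 1 read in the series. The 2 RNA-seq libraries came from macrophages sorted from the bone marrow and the spleen of leukaemic C57BL/6J mice with a stated age of 6 to 8 weeks, 1 library per tissue. Both tissues had been taken on day 15 after transfer of 500000 GFP-positive cells of a mouse leukaemia driven by the MLL-AF9 fusion oncogene, with no irradiation of the recipients, which lived for 25 to 30 days. The blood-forming cells of the recipients had thus not been ablated. Neither the sort gates nor the number of pooled mice is given in the sources used here. Healthy controls were not analysed here.

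In mammalian cells DNMT3A and DNMT3B place methyl groups on unmethylated CpG sites, and DNMT1 copies the pattern onto the new strand after replication, to which UHRF1 brings it by binding hemimethylated DNA. TET enzymes oxidise methylcytosine, and the glycosylase TDG cuts out the more oxidised bases so that repair restores plain cytosine. In blood-forming tissue these genes are known from mutations of DNMT3A and TET2 in human myeloid leukaemia, and DNMT1 and UHRF1 are known as genes of dividing cells.

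The library totals were 9625763 uniquely placed reads in bone marrow against 8264712 in spleen. Cell type markers showed that neither library held macrophage transcripts alone. The macrophage list, which includes Csf1r and Adgre1, summed to 473 CPM (read counts scaled to a common library size by TMM) in bone marrow and 1053 CPM in spleen, with 7 of 12 genes lower in bone marrow by 2-fold or more and none of its genes at 0. Lists of granulocyte precursors (12 of 12 genes, 46024 CPM in bone marrow, against 2059 CPM in spleen), of basophils, eosinophils and mast cells (7 of 7, 2567 and 51.9 CPM), of stem and progenitor cells (6 of 8, 1344 and 379 CPM, Mecom at 0 in spleen), of megakaryocytes (5 of 6, 297 and 18.1 CPM) and of B cell precursors (5 of 7, with 1 lower, 274 and 110 CPM) were higher in bone marrow. Lists of mature B cells (8 of 8, 394 CPM in bone marrow, against 4511 CPM in spleen), T cells (8 of 8, 126 and 1265 CPM), conventional dendritic cells (5 of 7, 176 and 918 CPM) and plasma cells (4 of 5, 491 and 2096 CPM) were lower in bone marrow. The NK cell list had 2 of 5 genes lower in bone marrow and 3 within 2-fold (106 and 199 CPM). The erythroid list had 1 of 7 genes in each direction (87.2 CPM in bone marrow, against 90.1 CPM in spleen), the plasmacytoid dendritic cell list had 0 of 4 in either (163 and 213 CPM), and the stromal and endothelial list was at 44.3 and 13.4 CPM with 3 of 5 genes higher in bone marrow, 1 lower, and Cxcl12 at 0 in spleen. No marker list for the transferred leukaemic cells was used. The part of these other cells, or of leukaemic cells, in the differences described here was not tested. In a bulk library fewer cells of a type and less RNA per cell cannot be told apart.

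The 4 genes past 2-fold were the maintenance genes Uhrf1 and Dnmt1, the de novo enzyme Dnmt3b and the eraser Tet2. Dnmt1, Uhrf1 and Dnmt3b were higher in bone marrow and Tet2 was lower in bone marrow, and the other 6 genes lay within 2-fold. A gene was called at a difference of at least 2-fold on log2(CPM + 1), bone marrow minus spleen, and all 10 passed the floor of 1 CPM and 10 reads in at least 1 library, as did 12970 genes in all. Of those, 14.1% were higher in bone marrow and 14.6% were higher in spleen, 28.8% in either direction, so 3 of 10 and 1 of 10 are counts over a small and chosen list and are read here gene by gene. The median log2 ratio was 0.41 over the 10 genes and 0.03 over all genes past the floor. With 1 library per tissue there was no replicate spread to set a difference against, and the 95% intervals below are exact counting intervals that hold no variation between animals.

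**Figure D1:**
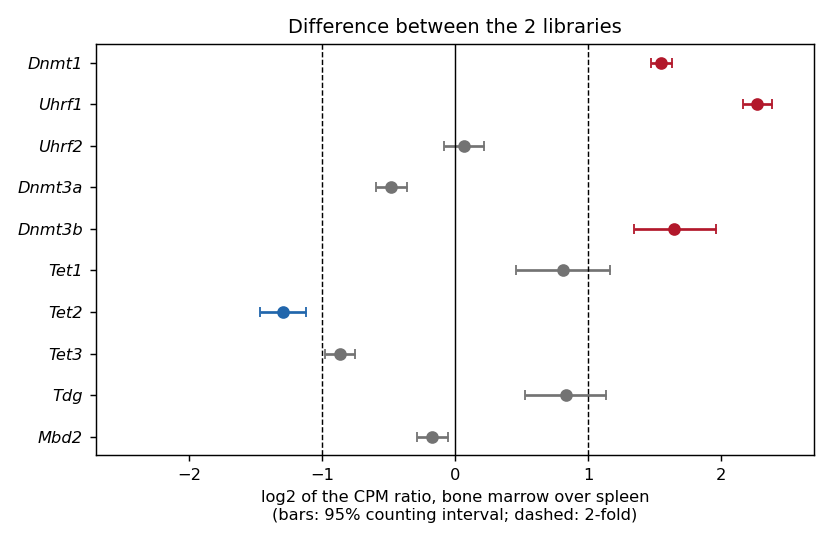
Log2 of the CPM ratio of bone marrow over spleen for each of the 10 genes, with 1 library per tissue. Points are ratios, bars are 95% exact counting intervals and dashed lines mark 2-fold; red points are called higher in bone marrow, the blue point is called lower in bone marrow and grey points lie within 2-fold. Uhrf1 stands farthest to the right at 4.83-fold and Tet2 farthest to the left at a ratio of 0.409.

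Dnmt1, the maintenance methyltransferase, had 5953 reads in bone marrow against 1827 in spleen, or 633 CPM and 216 CPM. It was 2.93-fold higher in bone marrow (2.78 to 3.09), a larger ratio than 92.4% of all genes past the floor. Uhrf1, which recognises the freshly replicated sites and recruits DNMT1, had 4246 reads in bone marrow against 791 in spleen, or 451 CPM and 93.5 CPM. At 4.83-fold higher in bone marrow (4.47 to 5.21) it had the largest ratio of the 10 genes, above 96.9% of all genes past the floor. Its paralog Uhrf2, which shares the domain layout but is known not to replace UHRF1 in maintenance, had 758 reads in bone marrow against 651 in spleen, or 80.6 CPM and 77.0 CPM. The Uhrf2 ratio of 1.05 had an interval of 0.942 to 1.16, the only one among the 10 that included equal levels, so a difference was not detectable at this depth. Within each library, where scaling between libraries plays no part, the RPKM (reads scaled to gene length and library total) of Uhrf1 was 5.62 times that of Uhrf2 in bone marrow (5.20 to 6.08) and 1.22 times in spleen (1.10 to 1.35). Uhrf1 thus took 84.9% of the reads of the pair in bone marrow (83.8% to 85.8%) and 54.9% in spleen (52.2% to 57.4%). Dnmt1 stood below Uhrf1 per length in bone marrow, at 0.855 times its RPKM (0.822 to 0.889), and above it in spleen, at 1.41 times (1.29 to 1.53).

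The S phase and mitosis genes moved in the same direction as Dnmt1 and Uhrf1. In bone marrow all 16 listed genes passed the 2-fold rule upward, with log2 ratios from 1.34 to 2.36, a median of 1.92 and a summed level of 6094 CPM in bone marrow, against 1687 CPM in spleen. Mki67, the Ki-67 proliferation antigen, was at 848 CPM in bone marrow, against 298 CPM in spleen, and Top2a, the topoisomerase that untangles replicated DNA, at 862 and 192 CPM. Pcna, the replication clamp to which DNMT1 binds, was 2.71-fold higher (2.56 to 2.87), and the replicative helicase genes ranged from 2.54-fold for Mcm4, through 3.39-fold for Mcm3, 3.53-fold for Mcm6, 3.64-fold for Mcm2 and 3.98-fold for Mcm7, to 4.27-fold for Mcm5. The nucleotide synthesis genes Rrm2 and Tyms were 5.19-fold and 4.76-fold higher, the cyclins Ccna2 and Ccnb1 4.81-fold and 5.30-fold, Cdk1 4.91-fold, and the mitotic genes Aurkb and Birc5 3.63-fold and 3.20-fold. Of these 16 genes, 3 had a smaller log2 ratio than Dnmt1 (1.55) and 13 a larger one, while 14 had a smaller ratio than Uhrf1 (2.26) and 2 a larger one. Dnmt1 and Uhrf1 therefore lay inside the range of the cell cycle list, Dnmt1 near its lower end and Uhrf1 near its upper end. Dnmt3b (1.58) also lay inside that range, in the same position as Dnmt1, and the other 7 genes lay below all 16. Whether more cells were cycling in 1 tissue was not tested, nor whether they were of the cell types above or transferred leukaemic cells.

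**Figure D2:**
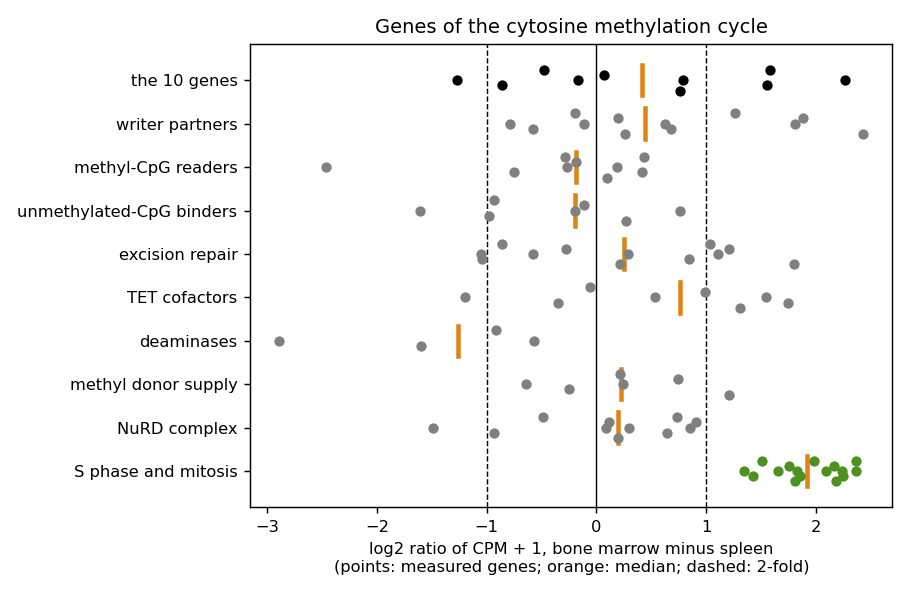
Log2 ratio of CPM + 1, bone marrow minus spleen, for the 10 genes (black), 8 lists of their partners (grey) and the S phase and mitosis list (green), with 1 point for each gene past the floor and 1 library per tissue. Orange bars are medians and dashed lines mark 2-fold; all 16 S phase and mitosis points lie right of the upper dashed line, with a median of 1.92, and the 10 black points run from -1.27 to 2.26.

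The de novo methyltransferases went opposite ways. Dnmt3a, a frequent target of mutation in human myeloid leukaemia, had 1076 reads in bone marrow against 1349 in spleen, or 114 CPM and 159 CPM. Its ratio of 0.717 (0.661 to 0.778) lay within 2-fold, with an interval below equal levels. Dnmt3b, an enzyme of early embryos and of stem and progenitor cells, had 397 reads in bone marrow against 114 in spleen, or 42.2 CPM and 13.5 CPM. It was 3.13-fold higher in bone marrow (2.54 to 3.89). The balance of the pair therefore differed, with the RPKM of Dnmt3a at 1.21 times that of Dnmt3b in bone marrow (1.08 to 1.36) and 5.28 times in spleen (4.36 to 6.45). Most genes of the stem and progenitor list were higher in bone marrow by 2-fold or more too. So were most genes of the granulocyte precursor, basophil, eosinophil and mast cell, megakaryocyte, B cell precursor and stromal lists. The part of these cells in the Dnmt3b value was not tested. The sum of the pair was 21.0 RPKM in bone marrow, against 19.9 RPKM in spleen. In CPM, which is not scaled to length, it was 157 in bone marrow, against 173 in spleen. The levels of de novo enzymes thus differed in composition more than in total, and the direction of the total depended on the unit. Dnmt3l, the catalytically inactive partner of the de novo enzymes in germ cells, had 11 reads in bone marrow against 3 in spleen. With Dnmt1 included, the 3 active enzymes summed to 126 RPKM in bone marrow, against 57.6 RPKM in spleen, of which Dnmt1 made up 83.4% and 65.4%, Dnmt3a 9.10% and 29.1%, and Dnmt3b 7.53% and 5.52%.

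Among the TET dioxygenases, Tet2 and Tet3 were at lower levels in bone marrow and Tet1 at a higher one. Tet2, which lacks the CXXC DNA-binding domain of the other family members and is often mutated in human blood cancers, had 413 reads in bone marrow against 909 in spleen, or 43.9 CPM and 107 CPM. Its ratio of 0.409 (0.363 to 0.459) passed the 2-fold rule, a 2.45-fold lower level in bone marrow, and 10.2% of all genes past the floor had a lower ratio. Tet3, the most abundant TET transcript in both libraries, had 996 reads in bone marrow against 1630 in spleen, or 106 CPM and 193 CPM. Its ratio of 0.549 (0.507 to 0.595) lay just inside the 2-fold rule. Tet1, the enzyme best known from embryonic stem cells, had 200 reads in bone marrow against 103 in spleen, or 21.3 CPM and 12.2 CPM. Its ratio of 1.75 had an interval of 1.37 to 2.24, within 2-fold at its value and past it at its upper end. The family summed to 15.6 RPKM in bone marrow, against 30.9 RPKM in spleen. Tet3 made up 60.7% of that sum in bone marrow and 58.5% in spleen, Tet2 29.8% and 38.7%, and Tet1 9.44% and 2.86%. Tet2 was thus 3.16 times Tet1 per length in bone marrow (2.66 to 3.76) and 13.5 times in spleen (11.0 to 16.7). Most genes of the macrophage, mature B cell, plasma cell, T cell and conventional dendritic cell lists were lower in bone marrow by 2-fold or more, as Tet2 was. The part of these cells in the TET values was not tested.

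**Figure D3:**
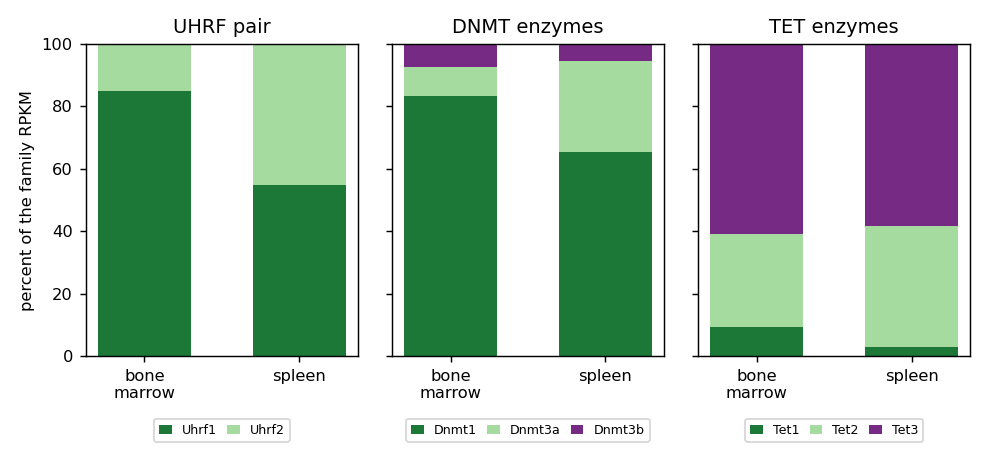
Composition of the UHRF pair, the DNMT enzymes and the TET enzymes within each library, as the percent of the summed RPKM of the family, with bone marrow left of spleen and 1 library per tissue. Uhrf1 and Dnmt1 fill more of their bars in bone marrow (84.9% and 83.4%) than in spleen (54.9% and 65.4%), while the Tet3 share is nearly the same in both (60.7% and 58.5%).

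Weighed against each other within a library, Dnmt1 was at 22.6 times the RPKM of Tet2 in bone marrow (20.4 to 25.0) and at 3.15 times in spleen (2.90 to 3.41). Tdg, the glycosylase that follows the TET enzymes, had 269 reads in bone marrow against 136 in spleen, or 28.6 CPM and 16.1 CPM, a ratio of 1.78 (1.44 to 2.20). The Tdg level is uncertain, with 41.5% and 40.3% of its length covered, as described below. Mbd2, the methyl-CpG-binding subunit of the NuRD repressor complex, had 1202 reads in bone marrow against 1218 in spleen, or 128 CPM and 144 CPM. Its ratio of 0.887 (0.819 to 0.962) was among the nearest to equal, with only Uhrf2 closer.

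Ordered per length, the levels of the 10 genes changed places between the libraries. In bone marrow Uhrf1 came first at 123 RPKM (119 to 127, counting error), followed by Dnmt1 at 105, Mbd2 at 66.9, Uhrf2 at 21.9, Dnmt3a at 11.5, Dnmt3b at 9.50, Tet3 at 9.49, Tdg at 8.68, Tet2 at 4.66 and Tet1 at 1.48 RPKM. There the counting intervals of Dnmt3b (8.59 to 10.5), Tet3 (8.91 to 10.1) and Tdg (7.68 to 9.79) overlapped one another. The Tdg level is uncertain for the reason given with its covered length below. In spleen Mbd2 came first at 79.0 RPKM (74.6 to 83.5), followed by Dnmt1 at 37.6, Uhrf1 at 26.7, Uhrf2 at 21.9, Tet3 at 18.1, Dnmt3a at 16.8, Tet2 at 12, Tdg at 5.11, Dnmt3b at 3.18 and Tet1 at 0.885 RPKM. There the counting intervals of Tet3 (17.2 to 19.0) and Dnmt3a (15.9 to 17.7) overlapped, which is not a test of equal levels. Uhrf1 was above 96.4% of listed genes in bone marrow and 78.5% in spleen by RPKM, Tet2 above 42.3% and 59.8%, and Tet1 above 29.8% and 24.8%.

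**Figure D4:**
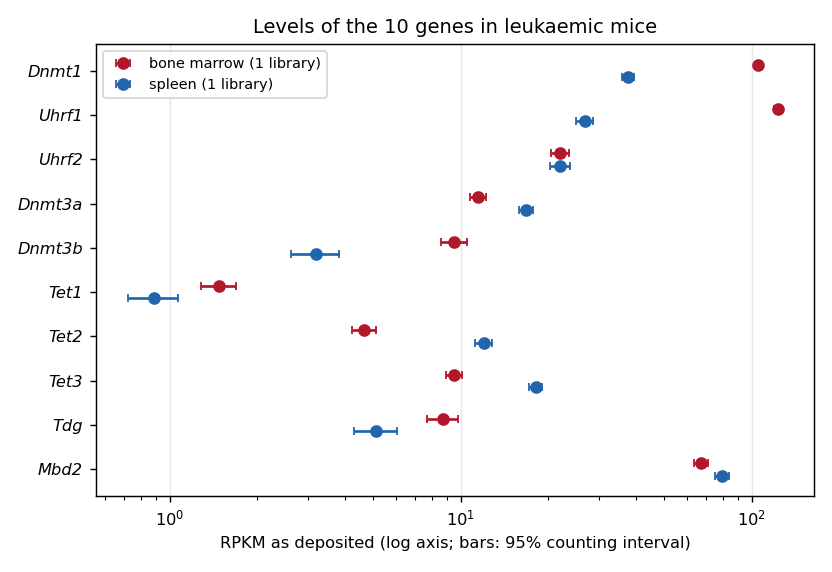
Deposited RPKM of the 10 genes on a log axis, with bone marrow in red above spleen in blue for each gene and 1 library per tissue. Bars are 95% exact Poisson intervals of the reads; the pairs lie farthest apart for Uhrf1 (123 and 26.7 RPKM) and coincide for Uhrf2 (21.9 RPKM in each).

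The promoters of the 4 genes past 2-fold are shown because these are the genes the comparison turns on. RefSeq sequences (GRCm38.p6) of 250 bases before and 50 bases from the start were found for 9 of the 10 genes in 14 entries, and for a gene with several starts the entry with the most CG pairs is printed, 5′ to 3′ on the strand of the gene. Capitals mark cores, searched on both strands, of the kind that E2F factors are known to bind at S phase genes. The searched cores were TTCCCGC and, as a variant, TTTGGCG, and a further variant, TTCGCGC, was added after the promoters had been seen. The promoters are Dnmt1 at chr9:20952574-20952873 on the minus strand, Uhrf1 at chr17:56304063-56304362 on the plus strand, Dnmt3b at chr2:153649199-153649498 on the plus strand and Tet2 at chr3:133544341-133544640 on the minus strand.
Dnmt1: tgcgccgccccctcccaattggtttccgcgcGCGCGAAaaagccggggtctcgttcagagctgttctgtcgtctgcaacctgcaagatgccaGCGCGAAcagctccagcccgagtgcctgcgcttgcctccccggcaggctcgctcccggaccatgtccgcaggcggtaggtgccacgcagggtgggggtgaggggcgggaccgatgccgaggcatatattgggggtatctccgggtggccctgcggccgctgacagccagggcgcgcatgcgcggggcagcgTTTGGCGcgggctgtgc
Uhrf1: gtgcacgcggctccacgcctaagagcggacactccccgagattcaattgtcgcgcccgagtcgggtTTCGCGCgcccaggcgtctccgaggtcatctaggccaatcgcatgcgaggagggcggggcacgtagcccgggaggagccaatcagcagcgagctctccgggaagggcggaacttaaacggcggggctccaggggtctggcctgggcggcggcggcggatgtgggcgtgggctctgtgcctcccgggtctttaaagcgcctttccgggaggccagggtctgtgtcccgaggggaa
Dnmt3b: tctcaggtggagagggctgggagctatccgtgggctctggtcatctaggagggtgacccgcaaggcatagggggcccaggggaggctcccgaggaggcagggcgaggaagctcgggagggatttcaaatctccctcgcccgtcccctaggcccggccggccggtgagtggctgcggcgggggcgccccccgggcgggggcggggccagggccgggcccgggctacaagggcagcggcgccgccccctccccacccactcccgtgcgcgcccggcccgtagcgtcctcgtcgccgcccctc
Tet2: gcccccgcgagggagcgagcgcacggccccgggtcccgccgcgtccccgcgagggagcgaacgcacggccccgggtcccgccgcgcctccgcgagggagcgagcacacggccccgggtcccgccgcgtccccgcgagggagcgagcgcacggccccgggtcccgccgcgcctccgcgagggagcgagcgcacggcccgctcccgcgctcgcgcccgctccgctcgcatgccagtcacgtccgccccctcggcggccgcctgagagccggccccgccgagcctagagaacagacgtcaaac

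Cores were found in 3 of the 14 entries, belonging to 2 of the 9 genes. The printed Dnmt1 promoter held TTTGGCG 33 bases after the start and the later-added TTCGCGC 219 and 158 bases before it, while the other 2 Dnmt1 entries held none. The printed Uhrf1 promoter held only the later-added TTCGCGC, at 184 bases before the start, and the other Uhrf1 entry held TTCCCGC 48 bases before its start. Without TTCGCGC, the printed Dnmt1 promoter thus held 1 core and the printed Uhrf1 promoter 0. No core overlapped another. The entries of Dnmt3a, Dnmt3b, Uhrf2, Tet1, Tet2, Tet3 and Tdg held none, which says only that these letters are not in these windows. At least 1 of the 3 cores was present in 7.3% of all 32851 promoter entries, TTCCCGC in 4.6%, TTTGGCG in 1.56% and TTCGCGC in 1.59%. The printed promoters had 33 CG pairs for Dnmt1, 33 for Uhrf1, 30 for Dnmt3b and 57 for Tet2, and the median of all entries was 7. Those of Dnmt1 and Uhrf1 were picked as the entries with the most CG pairs, so the comparison with that median is partly set by the choice; the other Dnmt1 entries had 12 and 2 CG pairs and the other Uhrf1 entry 12. Dnmt3b and Tet2 had 1 entry each, and 99.8% of all entries had fewer CG pairs than Tet2. The GC box GGGCGG, on either strand, was in 11 of the 14 entries and in 35.7% of all entries. The ETS core CCGGAAG was in 0 of the 14 and in 8.86% of all. The 14 entries include several starts of the same gene, and some Dnmt3a windows overlap. None of the shares over all entries was matched for CG pairs.

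The partners of the methyltransferases were higher in bone marrow or within 2-fold. Of 12 partners past the floor, of 13 listed, 4 were higher in bone marrow and 0 were lower (median log2 ratio 0.44). Over all genes past the floor, 14.1% were higher in bone marrow and 14.6% were lower, the shares to set beside every list below. Cdca7, which brings the remodelling enzyme HELLS to nucleosomes so that methylation can be kept there, was at 221 CPM in bone marrow, against 40.3 CPM in spleen, 5.49-fold higher (4.89 to 6.17). Hells itself was at 115 and 32.3 CPM, 3.58-fold higher (3.13 to 4.10). Cdca7l, the paralog of Cdca7, was at 104 and 27.5 CPM. Nsd2, a histone methyltransferase whose mark DNMT3A reads, was at 233 and 97.2 CPM, 2.40-fold higher (2.22 to 2.60). Usp7, the deubiquitinase that protects UHRF1 and DNMT1, was at 250 CPM in bone marrow, against 271 CPM in spleen, and the histone methyltransferase Ehmt2 at 238 and 274 CPM.

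Other readers of methylated CpG were mostly near equal, as Mbd2 was. Of 9 readers, 1 was lower in bone marrow and 0 were higher, with a median log2 ratio of -0.19. Over all genes past the floor 14.6% were lower, so a count of 1 in lists of this size is near that share. Zbtb4, a zinc finger protein that binds methylated CpG, was at 17.4 CPM in bone marrow, against 100 CPM in spleen, a ratio of 0.173 (0.146 to 0.205). The MBD family members Mbd6 and Mbd3 were at 146 and 123 CPM in bone marrow, against 128 and 91.0 CPM in spleen. In the NuRD complex, of which MBD2 is a subunit, 1 of 11 genes was lower in bone marrow and 0 were higher, with a median of 0.20. Chd3, one of its remodelling ATPases, was at 143 CPM in bone marrow, against 404 CPM in spleen, a ratio of 0.355 (0.333 to 0.379). Its alternative Chd4 was at 636 and 553 CPM and the scaffold Mta2 at 360 and 334 CPM. Binders of unmethylated CpG had 1 of 7 genes past the floor lower in bone marrow and 0 higher (8 listed, median -0.20). That gene was Kmt2a, the mouse counterpart of the MLL gene in the fusion, at 149 CPM in bone marrow, against 459 CPM in spleen, a ratio of 0.326 (0.306 to 0.346). Whether any of its reads came from a fusion transcript was not tested. Kdm2a, a histone demethylase of CpG islands, was at 150 and 287 CPM, and Cxxc4, which in mammals carries the CXXC domain that TET2 lacks, had no read in either library, so up to 0.319 CPM in bone marrow, against 0.355 CPM in spleen remain possible.

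Genes around the TET reaction were split between the libraries. Of 8 cofactor genes past the floor, of 9 listed, 3 were higher in bone marrow and 1 was lower (median log2 ratio 0.76). Over all genes past the floor these shares were 14.1% and 14.6%. The isocitrate dehydrogenases Idh2 and Idh1, which make the 2-oxoglutarate that TET enzymes consume, were at 182 and 76.7 CPM in bone marrow, against 53.8 and 25.8 CPM in spleen, or 3.38-fold (3.05 to 3.76) and 2.97-fold (2.55 to 3.48) higher. Idh3g, a subunit of the mitochondrial NAD-dependent enzyme, was at 156 CPM in bone marrow, against 107 CPM in spleen. Ogt, the O-GlcNAc transferase that binds TET2 and TET3, was at 173 CPM in bone marrow, against 399 CPM in spleen, a ratio of 0.433 (0.408 to 0.460), on the same side as Tet2 and Tet3. Wt1, a factor that recruits TET2, had no read in either library.

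The excision repair list held genes that act after TDG in demethylation, other glycosylases and the Gadd45 genes. Of its 12 members past the floor, 4 were higher in bone marrow and 2 lower (13 listed, median 0.25). Beside the 14.1% higher and 14.6% lower over all genes past the floor, the counts in this paragraph rest on short lists. Neil3, a glycosylase of dividing cells, was at 56.8 CPM in bone marrow, against 15.6 CPM in spleen, 3.64-fold higher (3.0 to 4.44), and the uracil glycosylase Ung was at 44.1 and 18.4 CPM. Gadd45a, a stress protein linked to demethylation, was at 29.2 and 13.0 CPM, and Apex1, the endonuclease acting after the glycosylases, at 29.2 and 13.8 CPM, though with 38.6% and 37.6% of its length covered. In the opposite direction, Gadd45b was at 26.0 CPM in bone marrow, against 54.7 CPM in spleen, and the glycosylase Neil1 at 10.6 and 23.1 CPM. Parp1 was at 320 and 276 CPM and Lig3 at 84.8 and 47.1 CPM. Among the cytosine deaminases 2 of 4 were lower in bone marrow and 0 higher, with a median of -1.26. Apobec2 had 1 read in bone marrow against 20 in spleen, a ratio of 0.0450 (0.00108 to 0.281), while Apobec3 was at 185 CPM in bone marrow, against 352 CPM in spleen and Apobec1 at 45.9 and 68.6 CPM. In the supply of the methyl donor, 1 of 6 genes was higher in bone marrow and 0 were lower (median 0.23). Ahcy, which clears the inhibitory product of methyl transfer, was at 232 CPM in bone marrow, against 99.6 CPM in spleen, 2.33-fold higher (2.15 to 2.52), and Mat2a, which makes the donor, at 233 and 201 CPM.

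How evenly reads covered each transcript separated Tdg from the rest. The deposited tables gave 41.5% of the Tdg length covered in bone marrow and 40.3% in spleen. Genes of like read depth per kilobase (within 1.25 times) had a median of 91.8% in bone marrow (n = 1386) and 80.2% in spleen (n = 1043), and 1.08% and 2.88% of them were covered less than Tdg. In GENCODE M21 transcripts, 87.8% of the Tdg sequence lay in stretches of 50 bases that also occur in another gene, and the processed pseudogene Tdg-ps alone shared 83.3%. The deposited counts hold only uniquely placed reads and the read length is not known here, so the Tdg level is given as uncertain, and the part of the shared sequence in its low cover was not tested. Uhrf1 shared 37.8% in the same way, mostly with the gene model Gm5648, but was covered over 99.7% in bone marrow and 99.2% in spleen. Dnmt3b shared 20.4% with its neighbour Dnmt3c and was covered over 96.5% and 63.1%, against medians of 92.7% and 66.4% for genes of like depth. Tet1 was covered over 46.8% and 27.4%, close to the medians of 46.6% and 28.1% at its low depth, and the other 6 genes were covered over at least 84.0% in both libraries and shared no such stretch. Dnmt1 was among them at 90.0% and 88.1%, against medians of 98.0% and 97.2% at like depth.

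**Figure D5:**
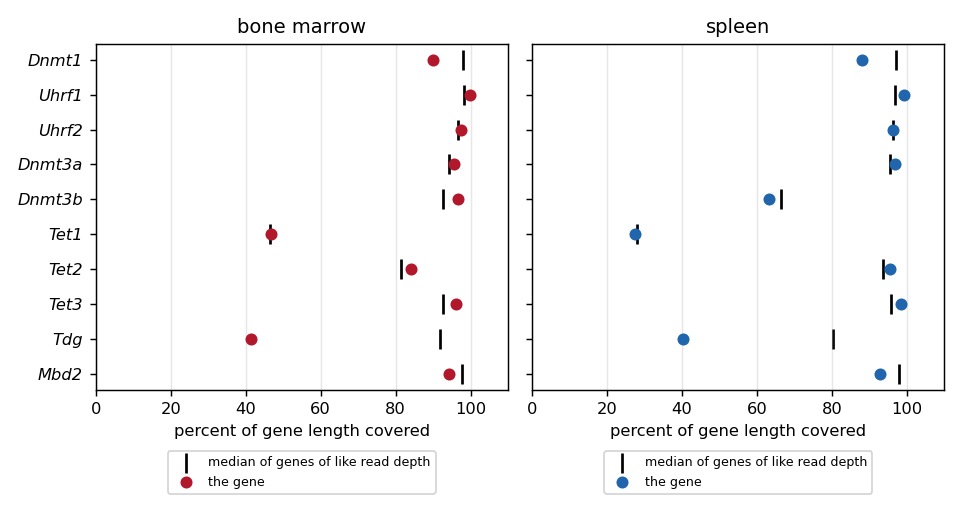
Percent of gene length covered by reads for the 10 genes, as deposited, in bone marrow (left) and spleen (right), 1 library each. Coloured points are the genes and black ticks are the medians of genes with a like number of reads per kilobase; Tdg (41.5% and 40.3%) lies far left of its ticks (91.8% and 80.2%), while Tet1 lies on them.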

How the data were processed

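Per the labels' protocols, total RNA of the sorted cells was made into standard Illumina libraries. Each gene has, per the file headers, the authors' count of unique reads, its length, the percent of it covered and an RPKM. For aligner, counter, build, annotation and strand setting, nothing is given in the sources used here. The deposited RPKM was recomputed from count, length and total within 6.74e-06 percent. The smallest listed count was 1, so a gene missing from a table was given 0 reads. Tables were joined on the Entrez identifier, of which 16379 matched a RefSeq symbol table and 49 kept the deposited symbol. CPM came from TMM scaling of the counts in edgeR 4.0.16 under R 4.3.3, with factors of 0.977 (bone marrow) and 1.02 (spleen), and ratios taken on log2(CPM + 1), which understates changes of low genes. Fold intervals are exact conditional binomial (Clopper-Pearson) and level intervals exact Poisson, both at 95%; PCR reads are not independent molecules, so they cover counting error only, as do the limits of 3 reads for a count of 0. No p-value was computed, since each tissue has 1 library.

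The 10 genes, the 9 pathway lists and the 14 marker lists were chosen with earlier results of these data known. All 10 genes are named, with every pathway-list gene past 2-fold and the 2 most abundant of each such list, apart from 2 genes past 2-fold that are counted in their lists but not reported here. The procedure was tested on simulated counts. Other settings tried were scaling by DESeq2 1.42.0, by library totals or by TMM without marker genes, a pseudocount of 0.1 or 5, the floor removed or set to 10 CPM, a 4-fold rule, the deposited RPKM, and read counts as weights of family shares. Levels between genes depend on the deposited gene length.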

Additional observations from a re-analysis of the deposited data

How the results depend on the processing

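Dnmt1, Uhrf1 and Dnmt3b stayed higher in bone marrow and Tet2 stayed lower, past 2-fold, under the 8 alternatives of scaling, pseudocount, floor and unit. Log2 ratios ran from 1.46 to 1.56 for Dnmt1, 2.16 to 2.27 for Uhrf1, 1.33 to 1.64 for Dnmt3b and -1.34 to -1.19 for Tet2. None of the other 6 genes passed 2-fold, with Tet3 at -0.92 to -0.83. With the deposited RPKM, to which 1 was added before the log, Dnmt1 (1.46) and Tet1 (0.39) moved by more than their counting error. Tet1 stood at 1.48 RPKM in bone marrow, against 0.885 RPKM in spleen, so the added 1 by itself shrinks its ratio. Under a 4-fold rule 1 gene, Uhrf1, remained higher in bone marrow and 0 were lower. Weighted by read counts, the Tet3 share was 61.9% in bone marrow, against 61.7% in spleen. The Dnmt1 share was then 80.2%, against 55.5%.

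Among pathway lists, library totals, TMM without marker genes and RPKM each called 2 unmethylated-CpG binders lower in bone marrow. A pseudocount of 5 left 2 excision repair genes higher and 0 lower in bone marrow, 1 deaminase lower and a writer partner median of 0.22. That median was 0.26 with no floor and with a floor of 10 CPM, which left 0 deaminases lower. The deaminase median was -2.25 with a pseudocount of 0.1, -0.72 with a pseudocount of 5 and -0.75 with the floor of 10 CPM.

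Marker medians on log2(CPM + 1) were 4.79 for granulocyte precursors, 5.51 for basophils and allied cells, 2.63 for progenitors, 2.89 for megakaryocytes, 2.03 for B cell precursors, 1.86 for stroma, -1.13 for macrophages, -3.61 for mature B cells, -1.63 for plasma cells, -3.30 for T cells, -0.45 for NK cells, -2.54 for conventional and -0.41 for plasmacytoid dendritic cells, and -0.15 for erythroid cells. The causes of the moves below, other than the setting itself, were not tested. With a pseudocount of 0.1 they were 2.80 for B cell precursors and 3.15 for stroma, and 1 macrophage gene (Cd14) was higher in bone marrow. With a pseudocount of 5 they were 4.49 for granulocyte precursors, 4.56 for basophils and allied cells, 2.07 for progenitors, 1.80 for megakaryocytes, -1.26 for plasma cells, -3.0 for T cells, -1.96 for dendritic cells and 0.71 for stroma, with 3 megakaryocyte and 1 stromal gene higher, 0 stromal genes lower and 1 NK gene lower. With a floor of 10 CPM they were 4.07 for megakaryocytes (3 higher), 2.96 for B cell precursors and 3.48 for stroma (1 higher, 0 lower). With RPKM they were 5.04 for basophils and allied cells, 2.24 for progenitors, -1.30 for plasma cells, -2.08 for dendritic cells and 0.63 for stroma (1 higher, 0 lower). No paired analysis was possible because each tissue had 1 library, and no library could be left out for the same reason. Depth limits Tet1 and Dnmt3b in spleen, at 103 and 114 reads.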
